A study of Drosophila melanogaster with 3 samples.

Results

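The 32 genes described here run the cell cycle and DNA replication in Drosophila melanogaster. They were taken as a named list with no threshold on a measured value, but earlier results of these data were known when it was chosen. The list holds 5 cyclins, 3 cyclin-dependent kinases (Cdks), 3 Cdk regulators, 3 E2F factors, the sliding clamp gene PCNA, 6 MCM helicase genes, 2 ribonucleotide reductase genes, 5 genes of the origin recognition complex (ORC) and 4 mitotic genes. All 32 matched a symbol among the 18164 annotated genes, and all are among the 13945 that code for protein. The measurement was chromatin immunoprecipitation with sequencing (ChIP-seq) of the protein CG15601, fused at its C-terminus to green fluorescent protein (GFP) and stably expressed in a transgenic line; what drives it is not given in the sources used here. Chromatin came from whole embryos of both sexes aged 0 to 14 h and was recovered with an anti-GFP antibody. The series holds 3 biological replicates of this 1 group, so there is no embryo group without the tag against which a peak could be set. Whole embryos mix many cell types and, at these ages, nuclei that divide rapidly with nuclei that have stopped, and a peak does not say in which of them the protein was bound.

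In the embryo, maternal cyclins and Cdks drive fast early divisions, after which cells come to depend on zygotic transcription of the Cdc25 phosphatase gene string and later of cyclin E. E2F with its partner Dp switches on genes for DNA synthesis, and retinoblastoma-family proteins hold E2F in check. The ORC marks replication origins and loads the ring of 6 MCM proteins that becomes the replicative helicase.

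A gene was called bound when the summit of a peak lay within 500 bp of any of its transcription start sites (TSS) in the list of 6458 peaks that passed the irreproducible discovery rate (IDR), a threshold on how well peak ranks repeat between replicates. Bound in this sense were 14 of the 32 genes (43.8%), against 26.7% of all protein-coding genes and 22.5% of all annotated genes. These were the cyclins CycA, CycB and CycB3, the kinase Cdk1, E2f1 and Dp, the helicase genes Mcm2 and dpa, the reductase subunit RnrS, Orc1 and Orc2, and the mitotic genes fzy, aurA and aurB. The genes without an IDR promoter summit were CycD, CycE, Cdk2, Cdk4, stg, twe, dap, E2f2, PCNA, Mcm3, Mcm5, Mcm6, Mcm7, RnrL, Orc4, Orc5, Orc6 and polo. With 1 group no test of binding was possible, and the counts are read only beside those of all genes.

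The replicate lists gave a similar picture with much spread in single genes. Among the strongest 6458 peaks of each replicate list, 16 of the 32 genes had a promoter summit in replicate 1, against 23.8% of protein-coding genes. Replicate 2 gave 13 genes, against 26.5% of protein-coding genes, and replicate 3 gave 20, against 29.5%. The share averaged 51.0% ± 11 for the 32 genes and 26.6% ± 2.86 for protein-coding genes (SD, n = 3 replicates), and the lowest of the 3 values of the 32 genes, 40.6%, was above the highest of protein-coding genes. In the whole replicate lists, each cut at 30000 peaks by the authors, 26, 27 and 27 of the 32 genes had a promoter summit in replicates 1, 2 and 3, against 44.2%, 51% and 52.1% of protein-coding genes. In the pooled list, also of 30000 peaks, the count was 24 of 32 (75.0%), against 47.9% of protein-coding genes. Because every unthresholded list has the same length, the number of its peaks says nothing of how much was bound, and ranks rather than heights are given below. A rank in a replicate is that of the strongest promoter peak of the gene in that list, which need not be the same peak as in the IDR list.

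**Figure D1:**
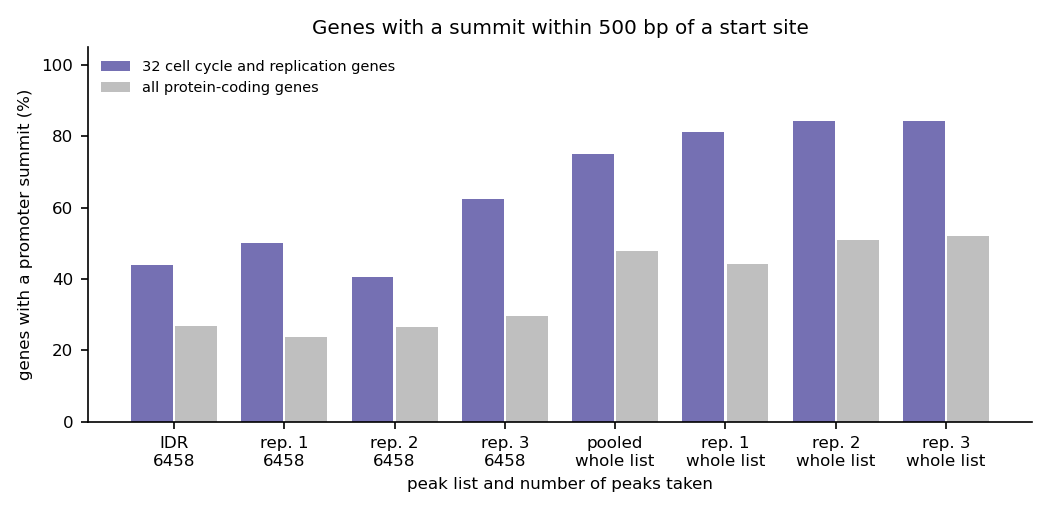
Share of genes with a peak summit within 500 bp of a TSS (y axis, percent) in each peak list (x axis), for the 32 cell cycle and replication genes (purple) and for all protein-coding genes (grey). The first 4 pairs take 6458 peaks from each list and the last 4 the whole lists, and the purple bar is the higher of the pair in all 8, for example 43.8% against 26.7% in the IDR list.

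Sequences around the summits are printed for part of the bound genes, chosen because the windows hold no exon, and do not stand for all of them. In 7 bound genes the 121 bases around the strongest IDR promoter summit contained no annotated exon. These 7 windows are written 5′ to 3′ on the strand of the gene, from the RefSeq copy of genome release 6 (the coordinates of dm6), with 3 words in capitals wherever a search of both strands found them: the DNA replication-related element TATCGATA (DRE), the core GGTCACAC of the M1BP motif, and the cell cycle homology region TTTGAA (CHR). No E2F word fell in any of them.
Orc2, chr3R:13964648-13964768, plus strand: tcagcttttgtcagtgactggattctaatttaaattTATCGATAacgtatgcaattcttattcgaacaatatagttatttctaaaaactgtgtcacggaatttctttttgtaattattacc
CycB3, chr3R:24870832-24870952, minus strand: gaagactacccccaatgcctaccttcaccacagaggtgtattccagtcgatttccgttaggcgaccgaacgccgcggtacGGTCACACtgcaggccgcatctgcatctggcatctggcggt
aurA, chr3R:11962923-11963043, plus strand: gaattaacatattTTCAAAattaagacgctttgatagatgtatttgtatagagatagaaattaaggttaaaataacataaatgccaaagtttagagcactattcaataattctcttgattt
Cdk1, chr2L:10386439-10386559, minus strand: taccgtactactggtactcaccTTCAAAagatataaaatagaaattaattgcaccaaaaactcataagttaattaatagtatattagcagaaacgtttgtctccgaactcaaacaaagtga
Mcm2, chr3R:8264694-8264814, plus strand: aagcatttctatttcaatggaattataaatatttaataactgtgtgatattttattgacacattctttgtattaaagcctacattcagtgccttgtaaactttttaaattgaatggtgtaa
fzy, chr2L:16310754-16310874, plus strand: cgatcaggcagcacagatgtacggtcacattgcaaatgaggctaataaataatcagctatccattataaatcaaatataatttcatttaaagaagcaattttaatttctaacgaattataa
aurB, chr2L:10858321-10858441, minus strand: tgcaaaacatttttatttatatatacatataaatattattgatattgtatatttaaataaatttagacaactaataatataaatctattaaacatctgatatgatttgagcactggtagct

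Of these windows 6 were rich in A and T, with a GC content between 18.2% for aurB and 30.6% for Cdk1, and that of CycB3 was the exception at 58.7%. Over the 14 bound genes the median GC content within 150 bp of the summit was 33.6%, against 36.5% at the other 3253 IDR promoter summits. Around the TSS instead of the summit, the median was 40.4% for the 14 bound genes and 37.5% for the 18 others. Within the same 150 bp the DRE occurred at 2 of 14 bound genes (14.3%), against 12.1% of the other promoter summits. An E2F word occurred at 2 (14.3%), against 6.98%; these were dpa, 85 bp from the summit, and Orc1, 131 bp from it. The M1BP core occurred at 3 (21.4%), against 9.84%, the CHR at 8 (57.1%), against 43.6%, and the TATA word TATAAA at 9 (64.3%), against 45.7%. The GAGA core GAGAG was at 2 (14.3%), against 32.1%, and the forkhead word TGTTTA at 3 (21.4%), against 38.6%, though within 250 bp the forkhead word was at 8 (57.1%), against 54.3%. A step of 1 gene among 14 is about 7.14 percentage points, and the part of base composition in the A- and T-rich words was not tested.

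E2F words stood at the start sites of many of these genes, both bound and not bound. Within 150 bp of the 5′-most TSS, 12 of the 32 genes (37.5%) had one of the 8-base words TTTGGCGC, TTTCGCGC, TTTCCCGC or TTTGCCGC on either strand, against 6.81% of 19200 other protein-coding TSS. The units differ, since the 32 genes enter by the 5′-most TSS alone and other genes can enter by several TSS. Of the 12, 4 were bound and 8 were not, while of the 20 genes without the word 10 were bound. Within 50 bp of the TSS the word was found at 11 genes (34.4%), against 2.3%. Around the strongest summits of the 14 bound genes the count depended on the distance: 0 genes within 50 bp, against 1.81% of other promoter summits, 2 within 150 bp, as above, and 3 within 250 bp (21.4%), against 11.3%. The count around start sites was added after the words around summits had been seen. The DRE was within 150 bp of the TSS of CycA, Cdk2, PCNA, Orc2 and Orc5 (15.6%), against 7.07% of other TSS. Below, 30 bases around each word are written on the gene's strand, with the word in capitals and the position of its first base relative to the TSS, to show how near the start these words lie in genes that were bound (Mcm2, CycA) and in genes that were not.
Mcm2, E2F word at 36, chr3R:8264995-8265024: ttagcaaacatTTTCCCGCgcattttcgca
Mcm3, E2F word at -6, chrX:5323838-5323867: cacactacgctTTTCCCGCgaaaaaacttt
Mcm5, E2F word at 32, chr3R:10788545-10788574: cggtaattttgGCGGCAAAatattcgcaca
Mcm6, E2F word at 13, chrX:6674389-6674418: gtcagaaaaagGCGCCAAAaccgagcaaag
RnrL, E2F word at 2, chr2L:10327923-10327952: aatgactttaaTTTGGCGCctttttgtgct
Orc5, E2F word at 10, chr2L:13829836-13829865: agagggaataaTTTGGCGCcatttcaatgg
stg, E2F word at -13, chr3R:29255795-29255824: taaaagctcgcGCGCCAAAatcagtggcct
CycA, DRE at -11, chr3L:11833571-11833600: acgccacgaccTATCGATAgctggacagtg
Cdk2, DRE at -61, chr3R:20735551-20735580: taaggaattctTATCGATAtgtggcgctgc

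A word is a run of letters and not a site at which a factor was seen.

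**Figure D2:**
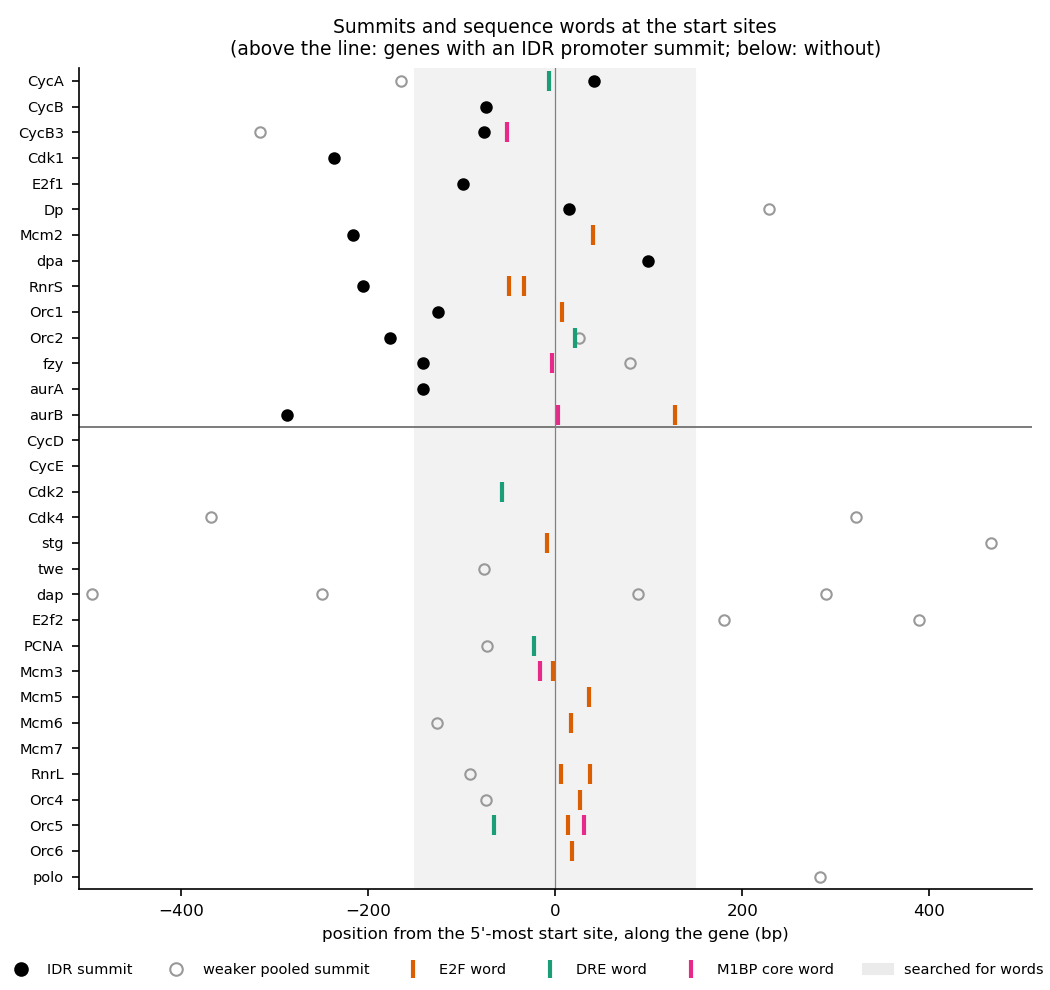
Position of peak summits and sequence words relative to the 5′-most TSS (x axis, bp along the gene) for each of the 32 genes (y axis), with the 14 bound genes above the line and the 18 others below. Filled circles are IDR summits, open circles weaker pooled summits, and ticks are words found in the shaded stretch of 150 bp on each side; E2F ticks cluster at the start, and most IDR summits lie upstream of it.

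Among the cyclins, the activating subunits of the Cdks, the mitotic ones were bound and the G1 ones were not. CycB, which pairs with Cdk1 for entry into mitosis, had its promoter summit 74 bp upstream of a TSS with rank 1783 in the IDR list and ranks 2852, 1361 and 2283 in replicates 1, 2 and 3. CycA, which acts in S phase and mitosis, had a summit in its 5′ UTR, 41 bp downstream of the TSS, with rank 3150 and replicate ranks 6310, 5245 and 1845. CycB3, a cyclin of anaphase, had rank 6201, near the end of the list, and replicate ranks 12849, 9190 and 5353. CycB was among the strongest 6458 peaks of all replicates, as was CycA, and CycB3 of 1 only. CycD, the partner of Cdk4 in cell growth, had a promoter summit in replicate 1 alone, with rank 5189. CycE, which drives entry into S phase with Cdk2, had one in replicate 2 alone, with rank 19048. Neither had one in the pooled list. CycE did hold a strong IDR peak, of rank 397, whose summit lay in an intron 604 bp upstream of the nearest CycE TSS (2L, 15746910 to 15747374). That is outside the 500 bp window, and with a window of 1000 bp CycE counts as bound.

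Of the kinases, Cdk1, which drives mitosis, was bound. Its peak, 237 bp upstream of the TSS, had rank 1623 in the IDR list, and the strongest promoter peaks of the gene in replicates 1, 2 and 3 had ranks 1225, 2729 and 1705. The IDR peak was 138 bp wide and, at 50% overlap, matched none of the strongest 6458 peaks of any replicate. Its width nearly fixed this outcome, because it cannot cover 50% of a replicate peak of the usual width. The summit was nearer, at 163 bp, to the TSS of mRpS7, a mitochondrial ribosomal protein gene, so the peak belongs to both promoters or to either. Cdk2, the S-phase kinase, had a promoter summit in replicate 1 alone, with rank 9512. Cdk4 had pooled rank 13697 and replicate ranks 3841, 14883 and 7972. Cdk4 too had an IDR peak just past the window, of rank 2390 and 570 bp upstream of a TSS.

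No Cdk regulator was bound, and the replicates differed widely. The Cdc25 phosphatase gene stg had pooled rank 8675 and ranks 19629, 16532 and 4600 in replicates 1, 2 and 3. Its germline relative twe had pooled rank 7388 and ranks 3565, 28796 and 4530. The Cdk inhibitor gene dap had pooled rank 9483 and ranks 3385, 14333 and 5719. All 3 were among the strongest 6458 peaks in replicate 3, 2 of them in replicate 1 and none in replicate 2.

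**Figure D3:**
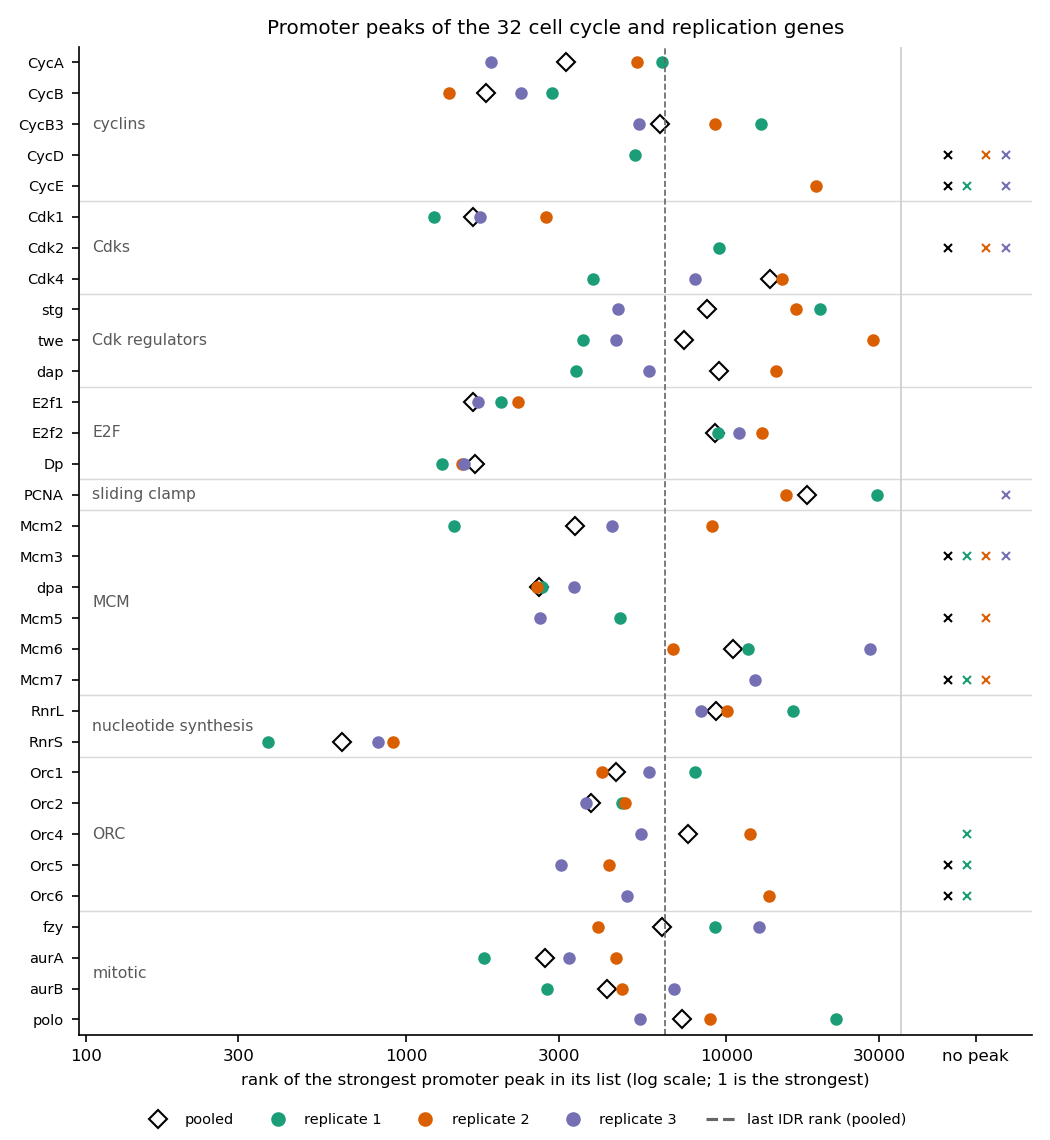
Rank of each gene's strongest promoter peak (x axis, log scale, 1 is the strongest) in the pooled list (diamonds) and in replicates 1, 2 and 3 (circles), for the 32 genes by class (y axis). The dashed line is the last of the 6458 IDR ranks and crosses at the right mark lists with no promoter summit; the 4 marks of E2f1 and of Dp lie close together, while those of twe range from 3565 to 28796.

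Among the E2F factors, the activator E2f1 and the shared partner Dp were bound, and the repressor E2f2 was not. E2f1 had 3 IDR promoter peaks with ranks 1613, 2977 and 5433. The strongest lay 247 bp upstream of an internal TSS (3R, 21633105 to 21633534) and the next 99 bp upstream of the 5′-most TSS. The best promoter ranks of E2f1 in replicates 1, 2 and 3 were 1974, 2237 and 1677. Dp also had 3 peaks, with ranks 1643, 1672 and 4671, the strongest in an intron 432 bp downstream of a TSS, and its replicate ranks were 1299, 1501 and 1520. The weakest of these peaks was nearer to the TSS of Fsn, an F-box protein gene. E2f2 had a pooled rank of 9224 and ranks of 9401, 12928 and 10967, outside the strongest 6458 in every replicate.

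Replication genes were split within each complex. Of the MCM genes, dpa, which encodes Mcm4, had IDR rank 2596 with ranks 2664, 2569 and 3354 in replicates 1, 2 and 3. Its summit was in the 5′ UTR, 99 bp downstream of the TSS, and within 500 bp of the TSS of the myosin gene didum. Mcm2 had rank 3375 and replicate ranks 1411, 9000 and 4402, and its summit, 216 bp upstream, was also within 500 bp of the TSS of RPA1, which encodes a subunit of the single-strand DNA binding protein. Mcm2 and RPA1 thus shared 1 peak. The other MCM genes ranged widely: Mcm6 had pooled rank 10523, Mcm5 had none in the pooled list but ranks of 4644 and 2629 in replicates 1 and 3, Mcm7 appeared in replicate 3 alone with rank 12330, and Mcm3 had a promoter summit in none of the 5 lists. Mcm3 was the only 1 of the 32 genes without one in any replicate.

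RnrS, the small subunit of ribonucleotide reductase, which makes deoxynucleotides, had the strongest promoter peak of the 32 genes. It ranked 633 in the IDR list and 370, 909 and 818 in replicates 1, 2 and 3. The summit was 206 bp upstream of the TSS (2R, 11985416 to 11985780, intergenic) and also within 500 bp of the TSS of CG34231. The large subunit RnrL had pooled rank 9266 and replicate ranks 16098, 10072 and 8347, so the subunits of 1 enzyme were on opposite sides of the threshold in the IDR list and in the strongest 6458 peaks of each replicate. PCNA, the sliding clamp of the DNA polymerases, had pooled rank 17818, ranks 29464 and 15409 in replicates 1 and 2, and no promoter summit in replicate 3.

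Orc1 and Orc2 were bound, with IDR ranks 4527 and 3768. Orc2 was ranked 4740, 4811 and 3658 in replicates 1, 2 and 3, and Orc1 was ranked 7959, 4087 and 5739. Orc4 had pooled rank 7583, and Orc5 and Orc6 had no pooled promoter summit. In replicate 3 all 5 ORC genes were among the strongest 6458 peaks, with Orc4 at 5402, Orc5 at 3042 and Orc6 at 4898. In replicate 2 Orc5 was among them too, with rank 4304, while Orc4 at 11836 and Orc6 at 13608 were not. Orc5 was thus inside this cut in 2 replicates, as was Orc1. In replicate 1 Orc2 alone was inside it, and Orc4, Orc5 and Orc6 had no promoter summit at all.

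The mitotic genes were bound apart from polo. The spindle kinase gene aurA had IDR rank 2720 and ranks 1755, 4509 and 3227 in replicates 1, 2 and 3, 141 bp upstream of its TSS and shared with CG3281. The kinase gene of the chromosomal passenger complex, aurB, had rank 4231 and replicate ranks 2747, 4734 and 6842, and its summit was nearer to Stam, at 155 bp, than to aurB, at 287 bp. The anaphase activator gene fzy had rank 6302 and replicate ranks 9206, 3981 and 12649, with its summit 88 bp from the TSS of cni and 142 bp from its own. The mitotic kinase gene polo had pooled rank 7294 and replicate ranks 21937, 8874 and 5368. CycB3 and fzy, with ranks 6201 and 6302, were the weakest genes inside the threshold, and polo and twe, with ranks 7294 and 7388, the strongest outside it.

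The peaks of the bound genes resembled those of bound genes at large. Their strongest peaks had a median IDR rank of 2940, against 2780 for all bound protein-coding genes, and 11 of the 14 lay upstream of the TSS (78.6%), against 85.5%. The median offset of the summit from the TSS was -142 bp, against -123 bp, and ranged from 287 bp upstream to 432 bp downstream. Another gene's TSS was within 500 bp of the summit for 8 of 14 (57.1%), against 58.2%, and it was the nearer one in Cdk1, fzy and aurB. A promoter summit was among the strongest 6458 of all 3 replicates for 9 of the bound genes (64.3%), against 63.1%. Among the 18 genes that were not bound, none had this in all 3 replicates, 4 had it in 2, 6 in 1 and 8 in none. IDR peaks were also matched by 50% overlap to the strongest 6458 peaks of each replicate. A match in all 3 replicates left 8 genes, against 12.6% of protein-coding genes. Leaving out replicate 1, 2 or 3 from this match gave 9, 9 and 8, against 17.4%, 14.8% and 14.1% of protein-coding genes. Of the genes lost, CycB3, Mcm2, Orc1 and fzy had a promoter rank beyond this cut in some replicate, so a weaker peak there was not counted. The peaks of Cdk1 and aurB, 138 and 109 bp wide, matched none of these strongest replicate peaks. The median width in the replicate lists was 404, 420 and 410 bp. In replicates 1, 2 and 3, 94.5%, 93.0% and 93.7% of peaks had exactly that width. So narrow a peak cannot cover 50% of them, and its missing match says little of whether the replicates held a peak there.

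Crowded promoters were bound more often among protein-coding genes at large than isolated ones. Of the 32 genes, 14 had another gene's TSS within 500 bp of a TSS of their own (43.8%), against 34.4% of protein-coding genes. Of these 14, 7 were bound (50%), against 44.9% of protein-coding genes with such a neighbour. Of the 18 without a close neighbour, 7 were bound (38.9%), against 17.2%. The difference from the share of all protein-coding genes was therefore larger for genes without a close neighbour, a comparison of small counts that was not tested. The split is by the distance between starts and not by peak. Mcm2 and RnrS count as having no close neighbour, yet their summits were also within 500 bp of the TSS of RPA1 and of CG34231. The contrast is therefore not one between unshared and shared peaks.

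Within the gene body and 5 kb on both sides, 28 of the 32 genes had an IDR peak, against 55.6% of protein-coding genes and 52.6% of all genes, and 31 had a pooled peak, against 75.1% of protein-coding genes. This window grows with gene length. The median length was 2823 bp for the 32 genes, 2166 bp for protein-coding genes and 1656 bp for all genes, and the part of length was not tested. Most of the IDR peaks in these windows were not at the gene's own start: of 64 IDR peaks, 18 were at the gene's own start, 33 lay within 500 bp of another gene's start only, and 13 were near no start. The strongest in any window, rank 74 near Orc5, was at CenG1A and mRpS23. Ranks 135 and 277 near Orc1 were at PIG-G and CG1602 and at Drat. The strongest peak with no TSS within 500 bp, rank 103, lay in intergenic sequence beyond the 3′ end of CycB (2R, 22802758 to 22803165), 3341 bp downstream of the nearest TSS, which is a CycB start, and matched a peak in all 3 replicates. Near PCNA, the peak of rank 2202 was at RpS18, a ribosomal protein gene, 1084 bp from PCNA. E2f1, a gene of 40568 bp, held 9 IDR peaks in its window, 5 of them near no start. CycD, Cdk2, dap and Mcm7 had no IDR peak within 5 kb.

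**Figure D4:**
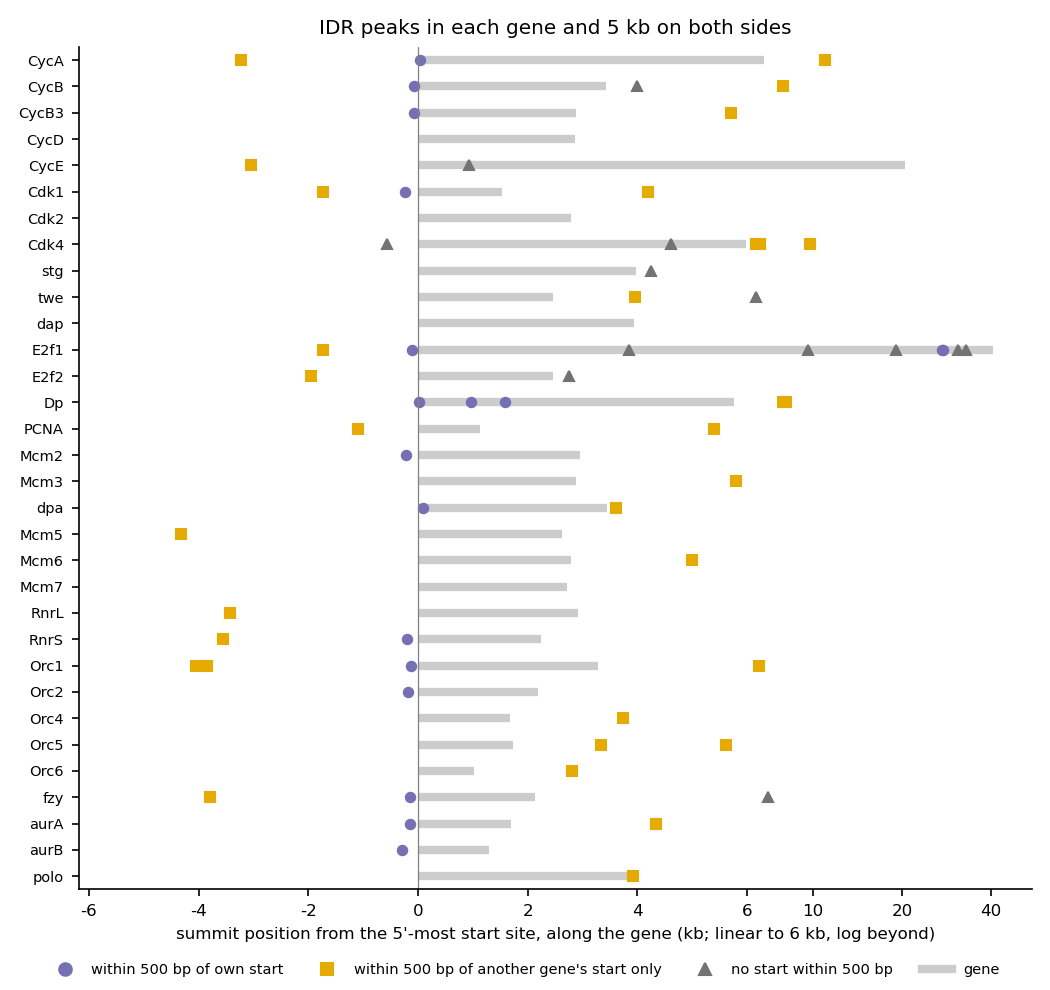
Position of every IDR peak summit in each gene and 5 kb on both sides (x axis, kb from the 5′-most TSS along the gene, linear to 6 kb and log beyond) for the 32 genes (y axis), with the gene as a grey bar. Circles are peaks within 500 bp of the gene's own start (18), squares peaks within 500 bp of another gene's start only (33), and triangles peaks near no start (13).

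A further 114 genes of the cell cycle and of replication, in 9 lists, were bound about as often as the 32. These lists too were chosen with earlier results of these data known. In the IDR list 50 of 114 were bound (43.9%), against 26.7% of protein-coding genes. Among the strongest 6458 peaks of replicates 1, 2 and 3 the counts were 42, 45 and 54, against 23.8%, 26.5% and 29.5% of protein-coding genes. The 50 promoter calls in the IDR list rest on 47 separate peaks. The share was highest among checkpoint genes, of which 8 of 11 were bound in the IDR list (72.7%), against 26.7% of protein-coding genes. Among the strongest 6458 peaks of each replicate 8 also had a promoter summit, though not the same 8. Bub3 had no promoter summit in replicate 2 and mei-41 none in replicate 3. BubR1, not bound in the IDR list, had ranks 5601 and 3807 in replicates 2 and 3. The bound checkpoint genes included mei-41 and tefu, the ATR and ATM kinases of the DNA damage response, with ranks 985 and 2753. The spindle checkpoint kinase gene Mps1 had rank 2892. The share of bound genes was lowest for centromere, spindle and cytokinesis genes, with 2 of 13 (15.4%), against 26.7% of protein-coding genes. These were tum, a cytokinesis regulator, with rank 615, and SAK, a centriole kinase gene that shared its peak of rank 1191 with Cdk12. Among polymerases and fork proteins, 10 of 23 were bound (43.5%), led by the polymerase delta subunit gene PolD2 with rank 182, Top1 with rank 3319 and RPA1.

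Each share below stands against the 26.7% of all protein-coding genes. Licensing genes were bound in 6 of 13 cases (46.2%). They were led by the kinase gene Cdc7 with rank 1843, the GINS subunit gene Psf1 with rank 2558 and chif, which encodes the activator of Cdc7, with rank 2645. Of the Rb and dREAM complex, which represses E2F targets, 3 of 6 were bound: Rbf2 with rank 1013, mip120 with rank 4488 and mip40 with rank 5324. Other cyclins and Cdks, many of which act in transcription, were bound in 9 of 16 cases (56.2%), with Cdk12, CycT at rank 2556 and CycG at rank 3742 in front. Of the anaphase-promoting complex 4 of 13 were bound (30.8%), near the 26.7% of protein-coding genes. Cdc16 was at rank 532, lmgA at 3593 and Cdc27 at 4809. Of cohesin and condensin 7 of 15 were bound (46.7%), with SMC2 at rank 1449, Cap-H2 at 1815 and the securin gene pim at 2435. Of other nucleotide synthesis genes, dUTPase alone of 4 was bound, with rank 2185.

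**Figure D5:**
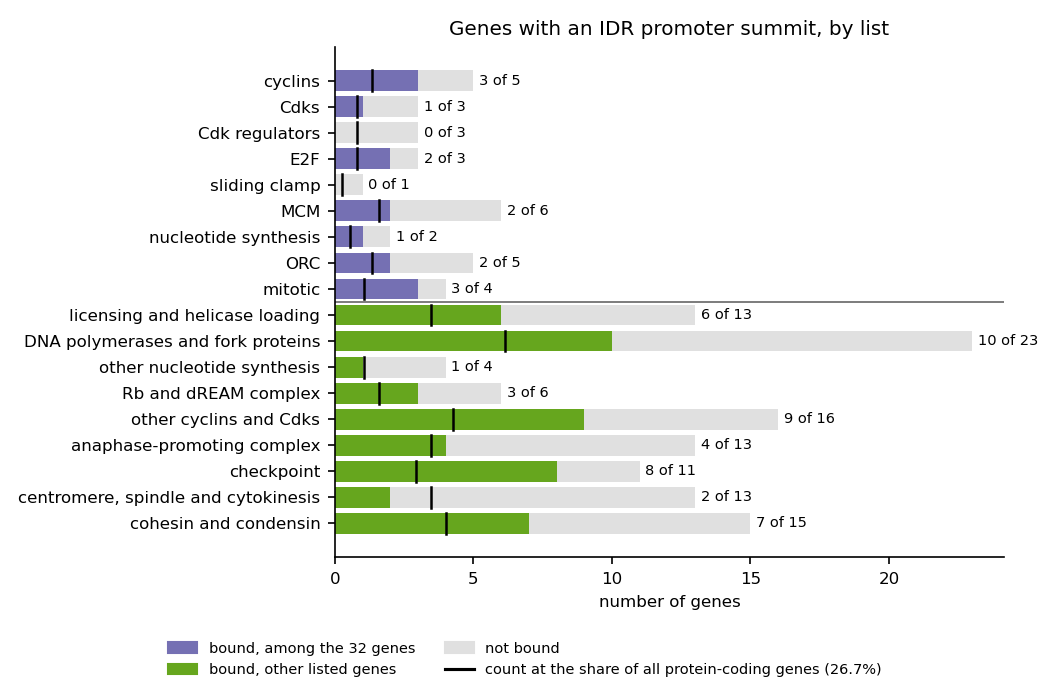
Number of genes with an IDR promoter summit (x axis, coloured part of each bar) of all genes in the list (whole bar), for the 9 classes of the 32 genes (purple) and the 9 lists of other cell cycle and replication genes (green). Black marks show the count at the share of all protein-coding genes, 26.7%; the bar of checkpoint genes reaches 8 of 11 and that of centromere, spindle and cytokinesis genes 2 of 13.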

How the data were processed

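Each of the 3 replicates has a peak list, and the authors deposited a list on the pooled replicates and an IDR-thresholded list (dm6, per the labels). For every peak the authors deposited a signal and the −log10 of a q-value, whose scaling, like the peak caller and aligner, is not given in the sources used here. Signal was used only to rank peaks within a list. The −log10 q was 4.16 for all IDR peaks as deposited, and was not used. The lists hold no read counts, so depth is unknown and no counting interval can be given. The IDR list equals the 6458 strongest pooled peaks, and 51.7% of its peaks have the 1 width of 430 bp, which limits how closely a summit marks a site. The control behind the lists was not analysed here.

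Gene models came from Ensembl release 115 (BDGP6.54) and the genome sequence, release 6, from RefSeq; all peaks fit inside its arms. Transcripts on 6 arms gave 23998 TSS. Of 114 other listed genes 7 matched by an older name. Summits, ranks, overlaps (at least 50% of both peaks) and words were computed in Python 3.11.15 with pandas 2.3.3 and numpy 2.4.6, and the code was tested on planted peaks. IDR peaks were matched only against the strongest 6458 peaks of each replicate. The 32 genes, the lists, the words and the naming rule (all 32 genes, the genes nearest their summits and the 3 strongest of each other list) were chosen with earlier results of these data known. Other genes were named after their values were seen. No p-value was computed, since there is 1 group. Alternatives were windows of 250 and 1000 bp, flanks of 2 and 0 kb, the stronger 3229 IDR peaks, peaks matched in replicates, any base of a peak, the 5′-most TSS and, added after seeing the data, the nearest TSS.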

Additional observations from a re-analysis of the deposited data

How the results depend on the processing

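The count of 14 bound genes was 13 with a window of 250 bp (without aurB), against 22.4% of protein-coding genes. It was 16 (with CycE and Cdk4) with 1000 bp, against 30%, and with any base of the peak in the window, against 28.1%. It was 14 with the 5′-most TSS only, against 24.7%, and 11 where the nearest TSS had to be the gene's own, against 20%, an alternative chosen after seeing the data. It was 8 in the stronger 3229 IDR peaks, against 15.1% of protein-coding genes, and 8 among peaks matched in all 3 replicates, against 12.6%, and 8 to 9 when each replicate was left out of that match, which asks more of a peak by construction. The 50 of 114 other listed genes came to 23 in the stronger IDR peaks, against 15.1% of protein-coding genes, and to 22 among peaks matched in all replicates, against 12.6%. They came to 33, 28 and 23 with replicate 1, 2 or 3 left out, against 17.4%, 14.8% and 14.1%. The mean of the replicate counts of the 32 genes was 8.0 with the strongest 3229 peaks. No share of protein-coding genes at that cut is given here, so this count cannot be set beside all genes. Without flanks, 6 of the 32 genes had an IDR summit inside the gene, against 12.1% of all genes, coding or not. The median length was 2823 bp for the 32 genes and 1656 bp for all genes, and the part of length was not tested. Within 50 bp of the summit the DRE was at 1 bound gene and the E2F word at 0, and within 250 bp they were at 2 and 3, against 2 each within 150 bp. Of 70 counts under alternatives in the 7 classes with a bound gene, 49 were within 1.5 times of the reported count, 25 were lower and 4 higher. Also within 1.5 times were 103 of 140 counts of promoter summits of single bound genes and 6 of 14 counts of other words. The 140 cover the 14 bound genes only and so leave out gains such as CycE and Cdk4. The pooled and IDR lists contain all 3 replicates, and a pooled list without 1 of them was not analysed here. No paired analysis was possible because there is 1 group. Depth is unknown, so a missing promoter summit does not show that the protein was absent.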

Other observations

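The strongest peak of the whole IDR list lay on the same arm as dpa and Orc1, 21107 bp from the nearest TSS of dpa and 46946 bp from that of Orc1. Over the merged windows of the 32 genes with 5 kb on both sides, 64 IDR peaks fell in 469.0 kb, a density of 137.0 per Mb, against 54.4 per Mb over the windows of all protein-coding genes. The window of E2f1 had 178.0 per Mb. Of the 64 peaks, 33 were at promoters of other genes only, and the part of gene density in this difference was not tested.

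Listed genes shared peaks with one another at 4 places. Besides Mcm2 with RPA1 and Cdk12 with SAK, the spindle checkpoint gene Bub3 shared a peak of rank 3201 with the condensin gene Cap-D2, and the checkpoint kinase gene lok shared a peak of rank 4456 with the condensin gene barr. At each place the genes start within 500 bp of 1 summit, so the peak cannot be given to either gene.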
